A study of Oryza sativa Japonica Group with 3 samples.

Results

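The genes described here are the rice thioredoxins, glutaredoxins, metallothioneins and cadmium tolerant genes. They were chosen by annotation: every gene of the deposited table whose description names thioredoxin, glutaredoxin, metallothionein or cadmium tolerant, and neither a ribosomal protein nor a kinase. Of 35664 listed genes, 133 met this rule. They fall into 46 thioredoxins, 41 proteins annotated only with a thioredoxin fold or thioredoxin-like fold, 21 glutaredoxins, 14 metallothioneins, 9 thioredoxin reductases or peroxidases and 2 cadmium tolerant genes. The rule itself uses descriptions and no measured value, but it was set with earlier results of these data known. CDT2 and MTI2B were singled out for description at that stage, so their ranks below are not those of genes picked blindly.

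RNA was sequenced from the terminal 1 cm of roots of 7-day-old rice seedlings, cultivar Nipponbare, in 2 RNA pools of 4 libraries each. Nuclear RNA came from the transgenic line p35S:OsNTF2, whose nuclei carry a tag that can be biotinylated and were held on streptavidin beads. Ribosomal RNA was then degraded in this pool. Poly(A) RNA came from another line, p35S:HF-FLAG-OsRPL18, which carries a tagged ribosomal protein, and was held on biotinylated oligo(dT). In each line the 35S promoter, a viral promoter active in most plant cells, drives the tag. The tagged nuclei are therefore a mixture of root tip cell types. The poly(A) RNA was held by oligo(dT) and not by the tag, so it too is a mixture of root tip cell types. RNA pool, plant line and RNA selection changed together and cannot be told apart. The labels also give a medium strength of 0.5 for the nuclear plants and 1 for the poly(A) plants, whereas the series text gives a single strength. All seedlings grew on MS medium with sucrose, and both pools are titled as control. The series text states 4 biological replicates per pool. The labels list a single sample per pool, so the 4 libraries of each were assigned to it by their names. Nuclei of the shoot base were not analysed here.

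Thioredoxins and glutaredoxins are small proteins that reduce disulfide bonds of other proteins. Thioredoxins are themselves reduced by NADPH-dependent or ferredoxin-dependent thioredoxin reductases, and glutaredoxins by glutathione. Plants hold h-type thioredoxins mainly in the cytosol and m-, f- and x-type thioredoxins in plastids. Metallothioneins are very small, cysteine-rich proteins that bind metal ions such as copper and zinc. Cadmium tolerant proteins are short cysteine-rich peptides, first known for cadmium tolerance of cells that express them.

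Levels are RPKM, reads per kilobase of gene, scaled to the depth of the library. Reads on listed genes numbered 1073588 to 2290266 per nuclear library and 19430866 to 29974177 per poly(A) library. For a gene of 1 kb, 1 read was therefore worth 0.436 to 0.93 RPKM in nuclear libraries and 0.0333 to 0.0514 RPKM in poly(A) libraries. Over the tested members the median coefficient of variation between libraries was 41.4% in nuclear RNA and 8.23% in poly(A) RNA. The root genes LSI1 and LSI2, silicon transporters of the endodermis and exodermis, averaged 69.3 and 121.5 RPKM in nuclear RNA, against 213.5 and 88.9 RPKM in poly(A) RNA. SHR1, a regulator of root ground tissue, averaged 34.4 RPKM in nuclear RNA, against 7.07 in poly(A) RNA. The shoot meristem gene OSH1 was listed at 0 in all libraries. In such bulk samples, fewer cells of a type and less RNA per cell cannot be told apart.

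Most tested members that differed between the pools were lower in nuclear RNA. A gene was tested when its mean reached 1 RPKM in either pool, and called at a Benjamini-Hochberg adjusted p under 0.05 from limma over all 26928 tested genes. Of the 133 members, 115 were tested, 58 were lower in nuclear RNA, 17 were higher and 40 were not called. Among all tested genes 30.0% were lower and 33.1% higher, while the members' shares were 50.4% and 14.8%. The median log2 difference, nuclear minus poly(A) on the log2(RPKM + 1) scale, was −0.63 for the members and 0.08 for all tested genes. Changes of low genes are understated on this scale. Without the minimum level, 130 members could be fitted, of which 60 were lower and 17 higher, beside 25.6% and 26.5% of all genes above 0. Of the tested members, 9 passed the minimum through poly(A) RNA alone and 4 through nuclear RNA alone. The remaining 18 members were too low, and 3 of these were listed at 0 in all libraries. In 72 of the 115 tested members all libraries of one pool lay above all those of the other. The same share over all tested genes was not counted, so this number cannot be read as a trait of the members.

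The families differed in their counts, to be read beside 30.0% lower and 33.1% higher among all tested genes. All 11 tested metallothioneins and both cadmium tolerant genes were lower in nuclear RNA, with median log2 differences of −3.13 and −4.78. Of these, MTI3A, MT1G and both cadmium tolerant genes passed the minimum through poly(A) RNA alone, so the filter favoured a lower call for them. Without the minimum, 13 metallothioneins were fitted, of which 11 were lower and 0 higher. Of 43 tested thioredoxins, 23 were lower and 6 higher, with a median of −0.71. Of 14 tested glutaredoxins, 6 were lower and 1 higher, with a median of −0.27. Of 8 tested thioredoxin reductases or peroxidases, 3 were lower (37.5%, near the share of all tested genes) and 1 higher (12.5%), with a median of −0.26. Of 37 tested thioredoxin-fold proteins, 13 were lower (35.1%, near the share of all tested genes) and 9 higher (24.3%), with a median of −0.24. The balance of this last family turned to 9 lower and 11 higher with libraries rescaled to an equal sum, and to 11 lower and 12 higher under limma's voom on recovered reads.

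**Figure D1:**
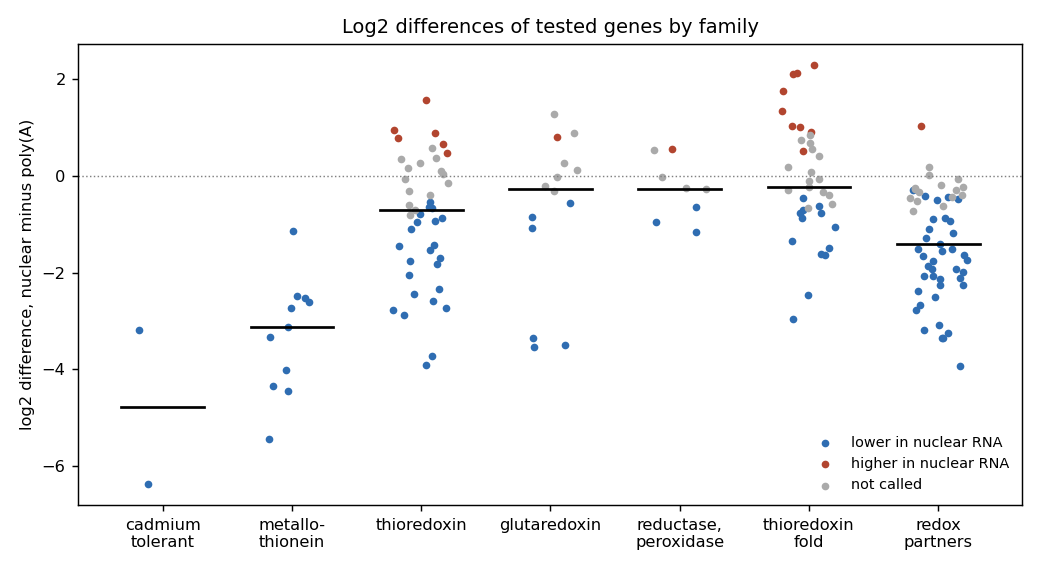
Log2 difference (nuclear minus poly(A), log2(RPKM + 1) scale) of each tested gene by family; red points were higher and blue points lower in nuclear RNA, grey points were not called, and black bars are medians. All metallothionein and cadmium tolerant points lie below 0, and the thioredoxin-fold proteins spread to both sides, up to 2.30.

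Summed over a family, the metallothioneins stood at 168.1 ± 47.8 RPKM in nuclear libraries and 1319.2 ± 148.1 RPKM in poly(A) libraries (SD, n = 4 each). The thioredoxins summed to 613.1 ± 32.1 RPKM in nuclear libraries and 1183.3 ± 33.1 RPKM in poly(A) libraries. The glutaredoxins summed to 275.3 ± 19.5 RPKM in nuclear libraries and 612.7 ± 39.1 RPKM in poly(A) libraries. In these 3 families no nuclear library reached the lowest poly(A) library. The thioredoxin-fold proteins summed to 653.5 ± 12.4 RPKM in nuclear libraries and 827.4 ± 33.6 RPKM in poly(A) libraries, again without overlap. All listed genes summed to 623150 to 630789 RPKM in nuclear libraries and 744642 to 758629 RPKM in poly(A) libraries. The family sums were not rescaled for this, so overlap or its absence is that of unscaled sums. The reductases and peroxidases summed to 248.5 ± 27.4 RPKM in nuclear libraries and 234.2 ± 2.40 RPKM in poly(A) libraries, and the pools overlapped. The members together took 0.209 to 0.229% of the reads of a nuclear library and 0.377 to 0.411% of those of a poly(A) library.

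CDT2 (OS06G0143100), a homologue of Cadmium tolerant 1 by its description, was close to 0 in nuclear RNA. It had 0, 1.273, 1.111 and 0 RPKM in nuclear libraries 1 to 4, against 116.5, 121.9, 115.4 and 137.6 RPKM in poly(A) libraries 1 to 4. All nuclear values lay far below all poly(A) values, and the difference was −6.38 ± 0.30 (SE, adjusted p = 1.17e-06). The nuclear values rest on 3 reads in all, since 1 read on this gene was worth 0.636 to 1.36 RPKM there, and the poly(A) values on 8997 reads. Corrected for depth, the poly(A) level was 171 times the nuclear level, with an exact 95% interval of 58.5 to 829 that covers counting error only. CDT2 had the lowest log2 difference of the 26928 tested genes, and it ranked first or second from the bottom under every setting tried.

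CDT5 (OS05G0178300), the other gene with this description, had 0 RPKM in all 4 nuclear libraries and 7.405, 8.427, 10.48 and 6.392 RPKM in the poly(A) libraries. With the nuclear pool set at 3 reads over its 4 libraries, which bounds a count of 0, it was at least 9.08-fold lower in nuclear RNA (adjusted p = 1.36e-06).

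The tested metallothioneins were lower in nuclear RNA, from the most to the least abundant. MTI1A (OS11G0704500), a type 1 metallothionein and the most abundant of them, had 160.1, 72.53, 108.7 and 141.3 RPKM in nuclear libraries 1 to 4, against 660.6, 871.1, 743.5 and 829.2 RPKM in poly(A) libraries. The pools did not overlap, and the difference was −2.73 ± 0.25 (SE, adjusted p = 2.44e-05), or −2.03 after quantile normalization. It made up 71.7% of the family's summed level in nuclear RNA and 58.8% in poly(A) RNA. Without it, the family still summed to 47.5 ± 11.4 RPKM in nuclear libraries and 543.1 ± 62.6 RPKM in poly(A) libraries (SD, n = 4 each).

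MTI2B (OS01G0974200), annotated as RicMT, had 0, 3.898, 4.535 and 0 RPKM in the nuclear libraries, against 90.53, 96.14, 126.7 and 85.29 RPKM in the poly(A) libraries. Its difference of −5.45 ± 0.60 (SE, adjusted p = 7.43e-05) was the second lowest of all tested genes, and over the settings tried its rank from the bottom lay between 2 and 14. MT2A (OS01G0149800), the member annotated as type 2, was steadier. It had 14.08, 10.67, 9.306 and 12.8 RPKM in nuclear libraries, against 68.73, 73.49, 86.18 and 74.91 RPKM in poly(A) libraries, a difference of −2.61 ± 0.16 (adjusted p = 3.25e-06). MTI1B (OS03G0288000) had 26.4, 18, 14.18 and 26 RPKM in nuclear libraries and 158.5, 230, 166.4 and 204.9 RPKM in poly(A) libraries (−3.13 ± 0.23, adjusted p = 7.92e-06). In both genes every nuclear library lay below every poly(A) library.

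**Figure D2:**
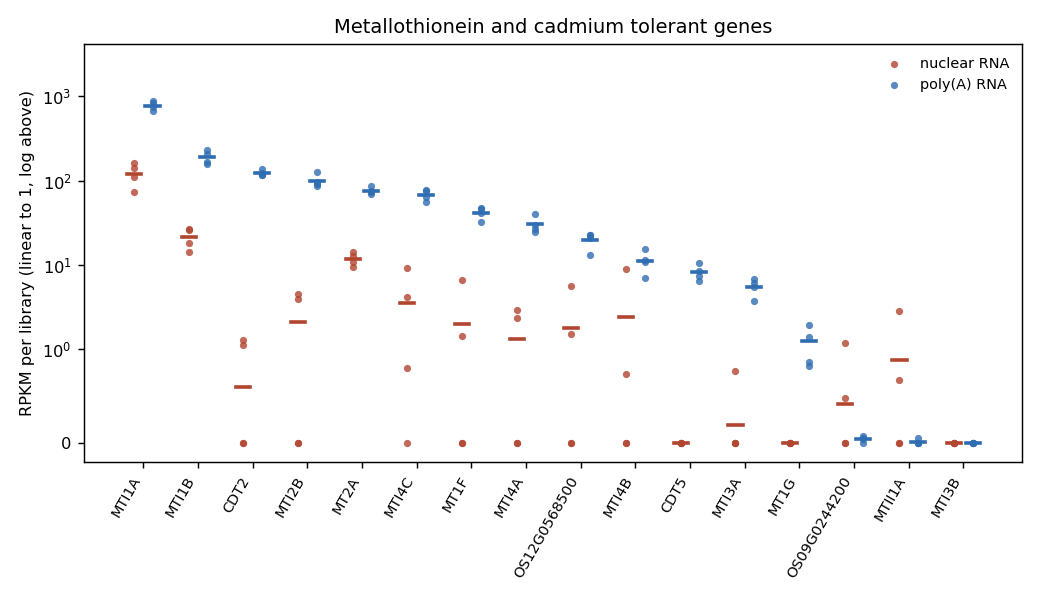
RPKM in each library (points) with the mean (bars) for all 14 metallothionein and 2 cadmium tolerant genes, nuclear RNA left of poly(A) RNA, ordered by poly(A) mean; the axis is linear up to 1 and logarithmic above. Nuclear points lie below the poly(A) points except in MTI4B, where 1 nuclear library at 8.981 RPKM reaches into the poly(A) range, and in the 3 genes at the right, which were too low to test.

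Several type 1 metallothioneins have identifiers close together in the OS12G series. MTI4C (OS12G0571100), described as a scavenger of reactive oxygen species, had 9.079, 0.7985, 4.18 and 0 RPKM in nuclear libraries, against 55.35, 74.37, 77.99 and 64.34 RPKM in poly(A) libraries (−4.46 ± 0.65, adjusted p = 0.000376). MT1F (OS12G0567800) had 6.618, 0, 1.422 and 0 RPKM in nuclear libraries and 32.39, 46.21, 41.66 and 46.63 RPKM in poly(A) libraries (−4.35 ± 0.60, adjusted p = 0.000289). In both genes nuclear library 1 was the highest of its pool and nuclear library 4 was at 0. Without nuclear library 1 the difference of MT1F was −4.98.

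MTI4A (OS12G0570700) rested on 3 nuclear reads, in libraries 1 and 2, and averaged 1.32 RPKM in nuclear RNA, against 30.2 in poly(A) RNA. Its poly(A) level was 18.4 times the nuclear level (exact 95% interval 6.27 to 89.3). OS12G0568500 had 5.598, 0, 1.504 and 0 RPKM in nuclear libraries, against 12.91, 22.35, 20.88 and 22.87 RPKM in poly(A) libraries (−3.33 ± 0.58, adjusted p = 0.00108). Its nuclear libraries were high and low in the same order as those of MT1F. Reads shared by such near copies could have been split by the counter, so values of single genes in the OS12G series are uncertain.

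MTI4B (OS12G0568200) was the only called metallothionein whose pools overlapped, with 0, 0.7352, 8.981 and 0 RPKM in nuclear libraries and 7.024, 15.34, 10.94 and 11.31 RPKM in poly(A) libraries. Its difference was −2.53 ± 0.70 (adjusted p = 0.0119), and −3.29 without nuclear library 3. MTI3A (OS01G0200700), a type 3 metallothionein, had 1 nuclear read, worth 0.7716 RPKM in library 2. It had 3.715, 5.459, 6.79 and 6.15 RPKM in the poly(A) libraries, 19.0 times the nuclear level (exact 95% interval 3.38 to 752). MT1G (OS12G0571000) had no nuclear read and averaged 1.25 RPKM in poly(A) RNA, at least 1.31-fold lower in nuclear RNA by the bound of 3 reads. By limma on log2(RPKM + 1), which does not test this bound, it was called lower (adjusted p = 0.000501). Its call was lost when the recovered reads were tested with limma's voom, with an adjusted p of 0.2.

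The other 3 metallothioneins could not be tested. MTI3B (OS05G0202800) was listed at 0 in all libraries. MTII1A (OS10G0542100), of the EC type known from seeds, had 3 nuclear reads and 1 poly(A) read, with 2.857 RPKM in nuclear library 4 as its highest value. OS09G0244200 had 4 nuclear and 9 poly(A) reads. Of the 11 tested metallothioneins, 8 were at 0 in at least 1 nuclear library, and their nuclear values rested on 11 reads or fewer. MTI1A, MTI1B and MT2A rested on 380, 94 and 46 nuclear reads.

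The h-type thioredoxins were among the thioredoxins with the lowest differences. By symbol or description, 9 genes belong to them or carry a TRXH symbol. Of the 8 tested, 6 were lower in nuclear RNA, 0 were higher and 2 were not called by limma, beside 30.0% lower and 33.1% higher among all tested genes. TRXH (OS07G0186000), annotated as a regulator of apoplastic reactive oxygen species and the most abundant thioredoxin in poly(A) RNA, had 15.52, 14.33, 19.8 and 6.37 RPKM in nuclear libraries 1 to 4. It had 168.1, 182.9, 196.2 and 195.4 RPKM in poly(A) libraries. The pools lay far apart, and the difference was −3.73 ± 0.30 (SE, adjusted p = 1.17e-05).

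TRXH4 (OS03G0800700), similar to thioredoxin H-type 5, had 20.23, 20.55, 27.17 and 21.26 RPKM in nuclear libraries, against 120.1, 125.6, 115.2 and 141.5 RPKM in poly(A) libraries (−2.45 ± 0.14, adjusted p = 2.75e-06). TRXH7 (OS01G0168200) had 0, 4.183, 1.622 and 0 RPKM in nuclear libraries and 27.53, 26.47, 27.03 and 30.12 RPKM in poly(A) libraries (−3.90 ± 0.50, adjusted p = 0.000182), the lowest difference of the thioredoxins. OS04G0629500, similar to thioredoxin h, had 0.306, 2.072, 2.959 and 5.626 RPKM in nuclear libraries, against 21.95, 21.5, 22.53 and 24.39 RPKM in poly(A) libraries (−2.88 ± 0.43, adjusted p = 0.000429). None of these genes overlapped between the pools. The 2 uncalled genes with a TRXH symbol carry other descriptions, but so do TRXH7 and TRXH8 (OS05G0169000), which were called lower. Both of the latter are described as similar to a thioredoxin-like protein. TRXH10 (OS01G0913000) is described as an f-type thioredoxin and had a difference of −0.60 (adjusted p = 0.213). TRXH3 (OS09G0401200) is described as a tetratricopeptide thioredoxin and had a difference of 0.10 (adjusted p = 0.699). TRXH9 (OS05G0480200) was too low to test.

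Among 5 thioredoxins described as plastid types, a group singled out after its values were seen, the m-type OS02G0639900, the x-type OS04G0676100 and the M5 type OS12G0188700 were lower in nuclear RNA, with differences of −1.10, −0.64 and −0.86. All 3 calls were lost with the length trend taken off (adjusted p = 0.0863, 0.293 and 0.0545) and with libraries rescaled to an equal sum without the 100 highest genes. Between 1 and 3 of them held when 1 library was left out. The m-type OS04G0530600 and the f-type TRXH10 were not called. Among all tested genes 30.0% were lower and 33.1% higher.

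Other thioredoxins moved in both directions. Of 22 tested thioredoxins whose description names a domain, TRXH3 again among them, 10 were lower, 4 higher and 8 not called. Among all tested genes 30.0% were lower and 33.1% higher. After median centring 2 of the 22 were higher. OS01G0339900, a thioredoxin domain 2 protein, had 25.18, 15.78, 23.11 and 23.44 RPKM in nuclear libraries, against 93.39, 90.88, 87.29 and 96 RPKM in poly(A) libraries (−2.04 ± 0.16, adjusted p = 1.21e-05). OS01G0963400 averaged 2.70 ± 2.76 RPKM in nuclear RNA, against 18.3 ± 0.432 in poly(A) RNA (SD, n = 4 each), with a difference of −2.78 (limma adjusted p = 0.00264). OS04G0560200 had 8.464, 5.211, 0 and 0 RPKM in nuclear libraries and 16.04 to 18.25 RPKM in poly(A) libraries. Its difference was −2.73 ± 0.73 (adjusted p = 0.0106), and −3.32 without nuclear library 1.

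The thioredoxins that were higher in nuclear RNA differed by less. OS02G0788133, similar to thioredoxin, had 6.227, 8.763, 3.823 and 12.85 RPKM in nuclear libraries, against 2.219, 1.808, 1.753 and 1.397 RPKM in poly(A) libraries (1.58 ± 0.30, adjusted p = 0.00185). OS03G0767500 had 13.06, 10.84, 11.59 and 7.457 RPKM in nuclear libraries and 4.409, 4.576, 5.901 and 4.96 RPKM in poly(A) libraries (0.96 ± 0.18, adjusted p = 0.00179). OS05G0200100, similar to thioredoxin-like 6, averaged 15.8 RPKM in nuclear RNA, against 7.91 in poly(A) RNA (0.88, adjusted p = 0.00351). In all 3 genes every nuclear library lay above every poly(A) library. OS03G0806500 averaged 28.5 RPKM in nuclear RNA, against 15.9 in poly(A) RNA (0.79, adjusted p = 0.00106). OS08G0250700, the thioredoxin with the largest share of the family's nuclear level, had 85.48, 53.59, 82.57 and 46.34 RPKM in nuclear libraries and 39.37, 39.16, 44.15 and 39.02 RPKM in poly(A) libraries. Its difference of 0.67 ± 0.22 (adjusted p = 0.0244) lost its call without any one of nuclear libraries 1 and 3 and poly(A) libraries 1, 2 and 4, with adjusted p-values of 0.0522, 0.0547, 0.0595, 0.0602 and 0.06, and also under median centring.

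**Figure D3:**
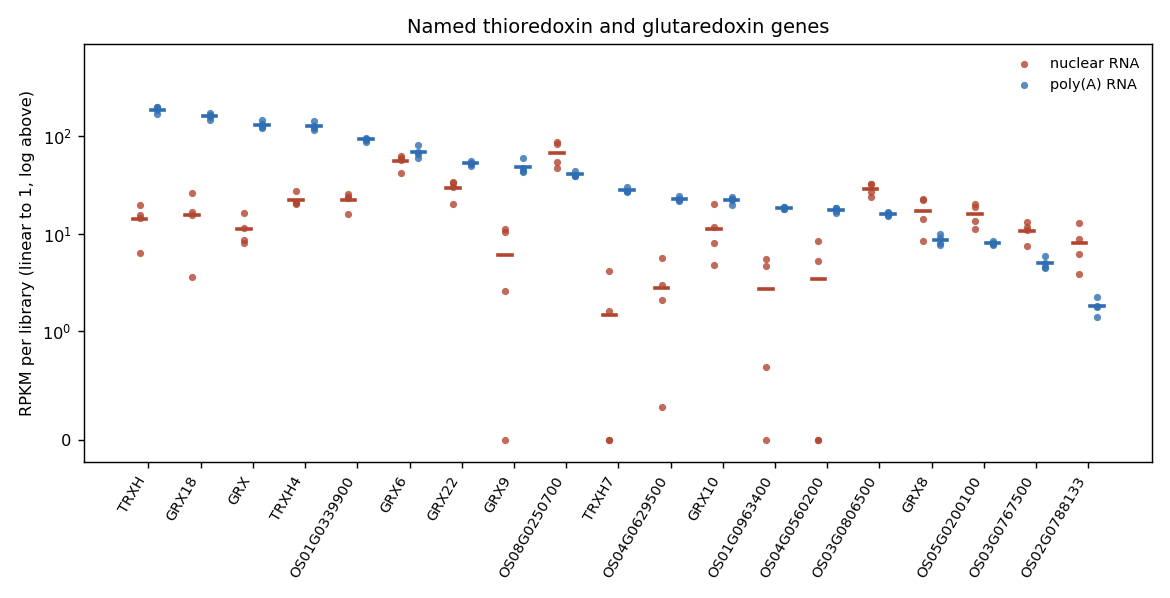
RPKM in each library (points) with the mean (bars) for the thioredoxins and glutaredoxins described by name from the extremes of the test and the highest levels, nuclear RNA left of poly(A) RNA, ordered by poly(A) mean; the axis is linear up to 1 and logarithmic above. TRXH, GRX18, GRX and TRXH4 stand above 100 RPKM in poly(A) RNA and below 30 RPKM in nuclear RNA, while the 5 genes at the right were higher in nuclear RNA.

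Among the glutaredoxins, 3 stood apart from the rest. GRX18 (OS06G0659500), the most abundant glutaredoxin in poly(A) RNA, had 3.613, 16.68, 15.53 and 26.1 RPKM in nuclear libraries 1 to 4, against 146.3, 154.5, 162.8 and 173.1 RPKM in poly(A) libraries (−3.53 ± 0.48, SE, adjusted p = 0.000251). GRX (OS04G0508300) had 8.651, 11.41, 7.966 and 16.23 RPKM in nuclear libraries and 122.8, 121, 144.2 and 133.5 RPKM in poly(A) libraries (−3.49 ± 0.21, adjusted p = 3.33e-06). GRX9 (OS02G0618100), similar to the chloroplastic glutaredoxin C4, had 0, 10.45, 2.605 and 11.15 RPKM in nuclear libraries and 42.39, 43.22, 46.46 and 59.97 RPKM in poly(A) libraries. Its difference was −3.36 ± 0.73 (adjusted p = 0.0037), and −2.61 without nuclear library 1. In these 3 genes the pools did not overlap.

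The other called glutaredoxins differed by less. GRX22 (OS10G0500700), similar to a monothiol glutaredoxin S11, averaged 29.1 RPKM in nuclear RNA, against 52.3 in poly(A) RNA (−0.85, adjusted p = 0.00284). GRX21 (OS08G0565800) averaged 13.8 RPKM in nuclear RNA, against 20.5 in poly(A) RNA (−0.57, adjusted p = 0.019). Its call was lost with libraries rescaled to an equal sum (−0.32, adjusted p = 0.134), with the length trend taken off (−0.18, adjusted p = 0.399), under voom (adjusted p = 0.0573) and without poly(A) library 3 or 4 (adjusted p = 0.0523 and 0.055). GRX10 (OS02G0646400) overlapped, with 8.077, 11.6, 20.25 and 4.715 RPKM in nuclear libraries and 19.76, 23.78, 21.79 and 22.64 RPKM in poly(A) libraries (−1.08 ± 0.36, adjusted p = 0.0266). Its call was lost without nuclear library 1 or poly(A) library 2, 3 or 4, with adjusted p-values of 0.0627, 0.0639, 0.0571 and 0.0606, and when libraries were rescaled to an equal sum or the length trend was taken off.

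GRX8 (OS02G0512400) was the only glutaredoxin higher in nuclear RNA. It had 8.298, 14.05, 22.29 and 22.7 RPKM in nuclear libraries, against 7.549, 8.032, 8.991 and 9.908 RPKM in poly(A) libraries, and nuclear library 1 lay within the poly(A) range. The difference was 0.80 ± 0.30 (adjusted p = 0.0424). The call was lost in 7 of the 8 fits that each left out 1 library, all but the one without nuclear library 1, with adjusted p-values up to 0.0998. It was also lost with a pseudocount of 0.1, with no minimum level, with median centring and with quantile normalization. GRX6 (OS01G0667900), a CC-type glutaredoxin annotated with nitrogen use, had 41.36, 56.73, 59.24 and 61.93 RPKM in nuclear libraries and 64.97, 58.93, 68.29 and 80.35 RPKM in poly(A) libraries. The pools overlapped and the gene was not called (−0.32, adjusted p = 0.137), except after median centring, where it was −0.47 and called lower.

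Of the 7 glutaredoxins too low to test, MIL1 (OS07G0151100), a CC-type glutaredoxin known from anther development, had no nuclear read and 0.470 RPKM in poly(A) RNA on average. GRX25 (OS11G0656400) and GRX26 (OS11G0656700), both annotated as similar to or as glutaredoxin C13, had the same nuclear value of 1.321 RPKM in library 2 and 0 elsewhere, and can share reads. A further 9 members with a GRX symbol are annotated only with a thioredoxin fold. Over the 25 members with a GRX symbol or the symbol MIL1, 18 were tested, 9 were lower and 1 was higher, with a median of −0.45. Among all tested genes 30.0% were lower and 33.1% higher. In this group 6 were lower with libraries rescaled to an equal sum and 7 with the length trend taken off. After median centring 10 were lower and 0 higher. GRX1 (OS01G0174900), one of those annotated with a fold only, had 1.582, 2.923, 3.4 and 10.39 RPKM in nuclear libraries, against 32.91, 34.86, 38.66 and 37.35 RPKM in poly(A) libraries (−2.96 ± 0.40, adjusted p = 0.000241).

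Among the enzymes that reduce thioredoxin, the NADPH-dependent reductases had unlike differences. NTRB (OS02G0713400) had 43.55, 49.25, 32.55 and 54.7 RPKM in nuclear libraries 1 to 4, against 72.34, 68.24, 69.82 and 68.89 RPKM in poly(A) libraries, a difference of −0.65 ± 0.17 (SE, adjusted p = 0.00992) without overlap. NTRA (OS06G0327300) had 76.01, 41.63, 52.24 and 83.67 RPKM in nuclear libraries, against 41.16, 43.29, 42.5 and 40.04 RPKM in poly(A) libraries. Of the nuclear libraries, only library 2 lay within the poly(A) range, and the gene was not called (0.54 ± 0.22, adjusted p = 0.0628). Without nuclear library 2 it was higher, at 0.72 (adjusted p = 0.00958). It was also called higher in 7 of the 12 other settings. NTRC (OS07G0657900), whose protein joins a reductase and a thioredoxin in plastids, averaged 6.44 ± 3.63 RPKM in nuclear RNA, against 12.2 ± 0.831 in poly(A) RNA (SD, n = 4 each; −0.96, limma adjusted p = 0.0317). Its call was lost without nuclear library 1 or any one poly(A) library, with adjusted p-values of 0.0607 to 0.0749.

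The 2 genes described as the variable chain of ferredoxin-thioredoxin reductase, the plastid enzyme that passes electrons from ferredoxin, also differed in their calls. OS04G0528800 had 3.301, 12.19, 7.98 and 3.252 RPKM in nuclear libraries and 13.59, 13.96, 14.59 and 14.46 RPKM in poly(A) libraries (−1.15 ± 0.36, adjusted p = 0.021), with no call without nuclear library 1 (adjusted p = 0.0504). OS02G0638300 was not called (adjusted p = 0.581). After rescaling to an equal sum per library, none of the 3 lower genes of this family was called; NTRB also lost its call under quantile normalization and OS04G0528800 with the length trend taken off. OS06G0625500, a thioredoxin peroxidase (a peroxide-removing enzyme that uses thioredoxin), was higher in nuclear RNA. It had 93.11, 80.69, 101.9 and 105.1 RPKM in nuclear libraries, against 64.86, 62.68, 64.99 and 64.75 RPKM in poly(A) libraries (0.55 ± 0.13, adjusted p = 0.00519), with no overlap. OS02G0192700, with the same description, overlapped between the pools and was not called by limma (−0.25, adjusted p = 0.376). Nor was OS09G0249900, described as the catalytic chain of ferredoxin-thioredoxin reductase (−0.03, adjusted p = 0.95).

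The proteins annotated only with a thioredoxin fold, a structural class that includes glutathione transferases and other enzymes, included most of the members that were higher in nuclear RNA by more than 1 on the log2 scale. OS03G0648800 had 11.46, 16.31, 10.77 and 12.22 RPKM in nuclear libraries 1 to 4, against 2.325, 1.455, 1.94 and 1.405 RPKM in poly(A) libraries (2.30 ± 0.18, SE, adjusted p = 9.59e-06), the highest difference of all tested members. OS01G0829400 had 15.39, 20.25, 21.05 and 27.57 RPKM in nuclear libraries and 4.346, 3.759, 4.859 and 3.159 RPKM in poly(A) libraries (2.12 ± 0.20, adjusted p = 2.75e-05). OS01G0235900 averaged 7.58 RPKM in nuclear RNA, against 0.868 in poly(A) RNA (2.12, adjusted p = 0.000137), and passed the minimum through nuclear RNA alone. In these 3 genes every nuclear library lay above every poly(A) library. OS02G0748800 averaged 24.5 RPKM in nuclear RNA, against 6.46 in poly(A) RNA (1.76, adjusted p = 2.03e-05). OS07G0159900 averaged 22.1 RPKM in nuclear RNA, against 8.00 in poly(A) RNA (1.34, adjusted p = 0.000145).

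GSTU33 (OS10G0365200), whose symbol is that of a tau-class glutathione transferase, was the most abundant member in nuclear RNA. It had 160.3, 166.2, 173.2 and 155.6 RPKM in nuclear libraries and 111.3, 105.6, 104.2 and 137 RPKM in poly(A) libraries (0.52 ± 0.13, adjusted p = 0.00864), without overlap, and 1.13 after quantile normalization. It made up 8.36% of the members' summed nuclear level, whereas MTI1A made up 18.0% of their summed poly(A) level. On the other side stood OS05G0509200, with 37.24, 36.18, 31.26 and 24.45 RPKM in nuclear libraries and 174.8, 173.2, 185.4 and 190.4 RPKM in poly(A) libraries (−2.47 ± 0.16, adjusted p = 4e-06). OS06G0320000, OS01G0829000 and OS01G0184800 were lower too, at −1.63, −1.61 and −1.50. Of these, OS01G0829000 passed the minimum through poly(A) RNA alone. OS02G0725100, abundant in poly(A) RNA, averaged 40.6 RPKM in nuclear RNA, against 69.2 in poly(A) RNA (−0.77, adjusted p = 0.00175). Of the 30 tested fold proteins without a GRX symbol, 9 were higher and 10 lower, shares of 30% and 33.3% that lie near those of all tested genes (33.1% and 30.0%). Of the 7 tested with one, 0 were higher and 3 lower by the same limma test.

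**Figure D4:**
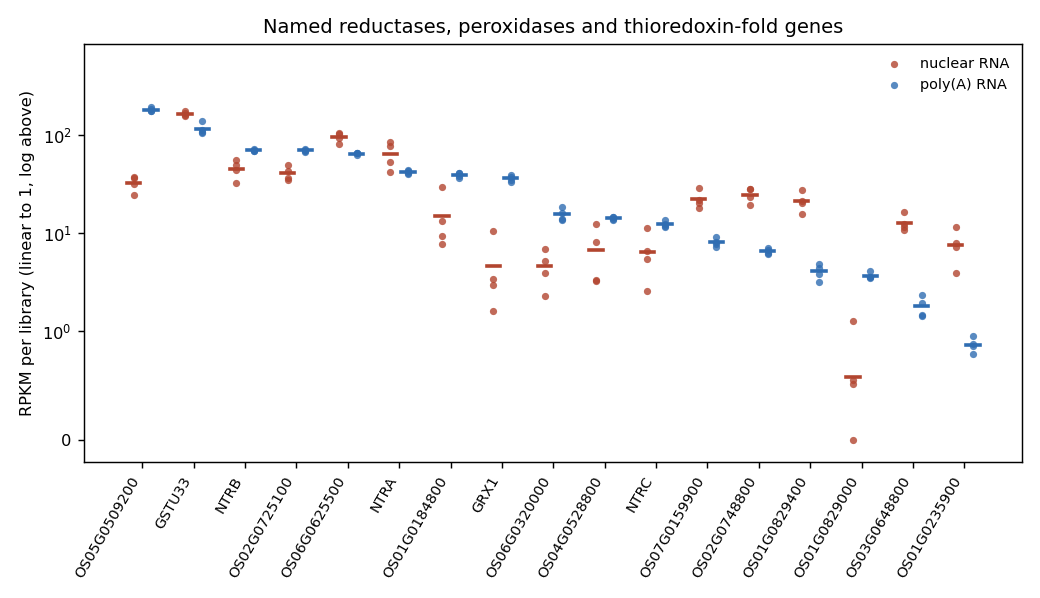
RPKM in each library (points) with the mean (bars) for the described reductases, peroxidase and thioredoxin-fold genes, nuclear RNA left of poly(A) RNA, ordered by poly(A) mean; the axis is linear up to 1 and logarithmic above. OS05G0509200 was the most abundant in poly(A) RNA and lower in nuclear RNA, whereas the low-level genes OS03G0648800 and OS01G0235900 had every nuclear library above every poly(A) library.

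Other genes of the redox network were set beside the members, chosen by words of their description. These were 76 genes whose descriptions name superoxide dismutases, catalases, ascorbate peroxidases, glutathione peroxidases and reductases, peroxiredoxins, dehydroascorbate reductases, ferredoxins or related enzymes. The words also took in ferredoxin-nitrite reductases, a ferredoxin-dependent glutamate synthase, the light-regulated LIR1 and an oxygen-evolving enhancer protein, among others. Of the 76 genes, 55 were tested, 39 were lower in nuclear RNA, 1 was higher and 15 were not called, with a median of −1.41. Among all tested genes 30.0% were lower and 33.1% higher. SODCC2 (OS07G0665200), a copper-zinc superoxide dismutase, had 14.16, 8.096, 20.65 and 22.58 RPKM in nuclear libraries, against 237.4, 246.8, 261 and 252.7 RPKM in poly(A) libraries (−3.94 ± 0.29, SE, adjusted p = 7.34e-06). SOD2 (OS03G0219200) and SODCC1 (OS03G0351500), further superoxide dismutases, were lower at −3.36 and −3.35. APX1 (OS03G0285700), an ascorbate peroxidase and the most abundant of these genes, had 285.1, 231.6, 302 and 299.9 RPKM in nuclear libraries and 980.6, 999, 990.2 and 1085.3 RPKM in poly(A) libraries (−1.86 ± 0.13, adjusted p = 6.9e-06). CATA (OS02G0115700), a catalase, averaged 147.4 RPKM in nuclear RNA, against 455.7 in poly(A) RNA (−1.63, adjusted p = 5.3e-05). After quantile normalization the differences of APX1 and CATA were −1.13 and −0.79. In these genes the pools did not overlap. The single higher gene was OS05G0157300, a 4Fe-4S ferredoxin domain protein, at 8.83 RPKM in nuclear RNA, against 3.74 in poly(A) RNA (1.04, adjusted p = 0.00101).

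Gene length moved with the difference. Lengths are those the counter used, recovered from the RPKM. Over the 115 tested members Spearman's rho of the log2 difference with length was 0.413, and over all tested genes it was 0.200. These are correlations across genes, which are not independent replicates, within the same libraries. The tested metallothioneins had a median length of 553 nt and all tested members one of 978 nt, against 1499 nt for all tested genes. Between 500 and 750 nt, 20 of 25 members were lower and 0 higher by the limma test, beside 40.4% lower and 20.0% higher among all tested genes of that length. Leaving out the metallothioneins and cadmium tolerant genes, 9 of 14 members of that length were lower. At 1500 nt and above, 7 of 20 members were lower and 4 higher, beside 24.1% lower and 40.5% higher among all tested genes.

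With the trend over length of all genes taken off, 47 members were lower and 22 higher, and the members' median was −0.35. Among the 26928 tested genes, 8425 were then lower and 8223 higher. The metallothioneins kept a median of −2.74 and the cadmium tolerant genes one of −4.41, and all 13 tested genes of these families were still called lower. The median of the thioredoxins was then −0.42, that of the glutaredoxins −0.09, and that of the thioredoxin-fold proteins 0.12. The part that short transcripts or library preparation play in these differences was not tested.

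**Figure D5:**
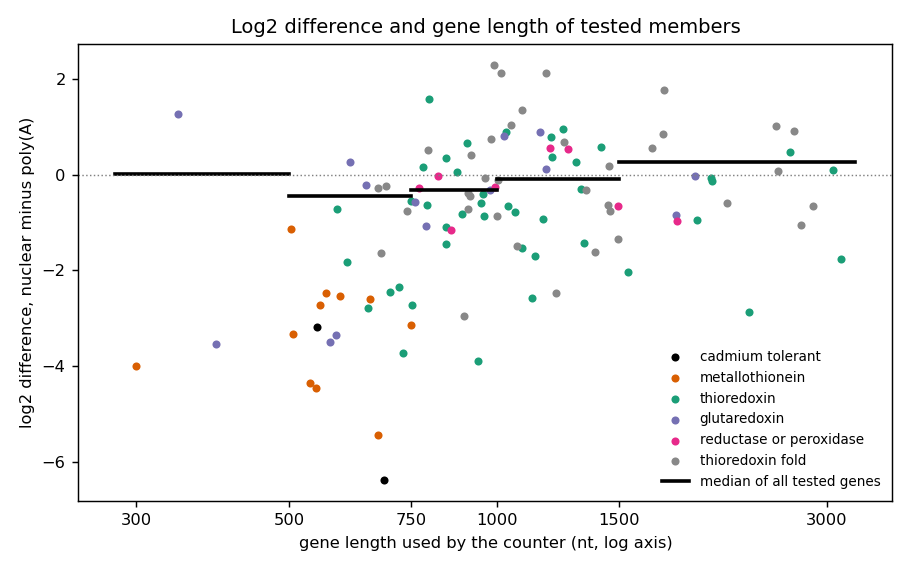
Log2 difference (nuclear minus poly(A), log2(RPKM + 1) scale) of each tested member against gene length in nt on a log axis, coloured by family; black bars are the medians of all tested genes in 5 ranges of length. Metallothioneins and cadmium tolerant genes lie below the bars for their length, and the other families lie on both sides of them.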

How the data were processed

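The authors deposited RPKM per gene for 8 libraries. The submitters' processing notes name TopHat2 2.1.1, CASAVA 1.8 and FastQC, and the IRGSP-1.0 genome build. Which counter made the RPKM, and whether it used strand, is not given in the sources used here, so antisense or overlapping genes and near copies can share reads. Of 35664 gene identifiers, 29 were repeated with identical values and entered once.

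RPKM values of a gene were whole multiples of 1 read, which gave reads, depths and lengths: 100% of 33191 genes above 0 came out whole (largest deviation 3.12e-05 reads). In a simulation of 19741 genes, 98.4% were given back their true reads.

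Values were tested as log2(RPKM + 1) with limma 3.58.1 (lmFit, eBayes; R 4.3.3), nuclear minus poly(A), two-sided, over 26928 genes with a mean of at least 1 RPKM in either pool, with Benjamini-Hochberg adjustment and a threshold of 0.05. On simulated data of 26155 genes, 12% of 1.5-fold, 62% of 2-fold, 86% of 4-fold and 95.9% of 8-fold changes were called, and 0.0886% of unchanged genes. In the simulation 25956 genes were unchanged, both pools were drawn around a shared mean, and the spread between libraries was set by assumption. Far more genes differed in the real data, so these shares need not hold there. Intervals are exact binomial (95%); a count of 0 was bounded by 3 reads over the pool. Both cover counting error only. P-values rest on the stated 4 biological replicates per pool.

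Families were formed by description. All metallothioneins and cadmium tolerant genes are named; in each other family, the 5 lowest and 5 highest called genes and the 3 most abundant in poly(A) RNA, and of the other redox genes 3 of each. Genes added to these were chosen after their values were seen. Members, lists and tests were chosen with earlier results of these data known.

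Alternatives were pseudocounts of 0.1 and 0.5, no minimum or one of 5 RPKM, 4 scalings, voom on recovered reads, limma-trend, a length trend (lowess), a replicate block and each library left out. Same-numbered libraries did not deviate together (r from −0.0476 to 0.00922), so numbers were not taken as pairs. No genome of this annotation was used, so no coordinates or sequences are given.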

Additional observations from a re-analysis of the deposited data

Results flagged for a closer look

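Of 128 groups of 4 libraries examined, 10 had 1 library set apart from the other 3 by a gap that took most of the group's range, which chance gives in about 1 of 20 groups. Among metallothioneins, MTI3A had 0.7716 RPKM in nuclear library 2 and 0 in the others, MTII1A had 0.05118 RPKM in poly(A) library 1 and 0 in the others, and MTI4B had 8.981 RPKM in nuclear library 3 against at most 0.7352 RPKM in the other nuclear libraries. The first 2 of these single values are 1 read each. TRXH4 was high in nuclear library 3 at 27.17 RPKM, with 20.23 to 21.26 RPKM in the other nuclear libraries.

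In poly(A) RNA, OS08G0250700 was high in library 3 at 44.15 RPKM (others 39.02 to 39.37), OS06G0625500 low in library 2 at 62.68 RPKM (others 64.75 to 64.99) and OS01G0829000 high in library 4 at 4.089 RPKM (others 3.44 to 3.551). SODCC1 was low in nuclear library 4 at 36.72 RPKM (others 61.09 to 63.96). The summed level of the thioredoxin-fold proteins was high in nuclear library 3 at 672 RPKM (others 646.6 to 648.5), and that of the other redox genes was high in poly(A) library 4 at 6673.3 RPKM (others 6085.7 to 6131.6).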

How the results depend on the processing

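Over the 20 alternatives the log2 difference of 0 of the 55 named tested genes changed sign, but the balance of 2 families did. Over all members the number lower lay between 43 and 62 and the number higher between 14 and 23, against 58 and 17 as reported; leaving out 1 library at a time gave 49 to 57 lower and 15 to 21 higher. All 11 tested metallothioneins stayed lower except under voom and a minimum of 5 RPKM, with 10 each, the minimum having removed a gene. Thioredoxin-fold proteins turned to 11 higher and 9 lower under both equal-sum scalings and to 12 higher and 11 lower under voom, against 9 higher and 13 lower as reported. Counts of small families moved. Glutaredoxins higher in nuclear RNA numbered 2 under both equal-sum scalings, 3 with the length trend taken off, 3 under voom and 0 under median centring, no minimum and a pseudocount of 0.1, and 0 to 2 with 1 library left out. Reductases or peroxidases that were higher numbered 2 under both equal-sum scalings, the length trend, limma-trend, a minimum of 5 RPKM, quantile normalization and voom, and 1 to 2 with 1 library left out, while those that were lower numbered 0 under both equal-sum scalings. Of the other redox genes, 4 were higher under quantile normalization. The cause was not tested. The median of all genes was 0.29 and 0.32 with libraries set to an equal sum, with and without the 100 highest genes, and −0.08 after median centring; of all called genes 52.5% were higher as reported, 61.3% and 62.6% under the equal sums and 45.9% after median centring.

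With the replicate number as a block, 55 members were lower and 17 higher, and 55 of 55 named tested genes kept their calls, while GRX21 lost its call (adjusted p = 0.0543); 0 of 4 nuclear libraries correlated best with the poly(A) library of its own number. Depth limits the nuclear side: for most metallothioneins a few reads set the nuclear value, so the size of their differences moved more than their calls: with a pseudocount of 0.1, 10 of the 13 tested metallothionein and cadmium tolerant genes moved by over 1.5 times. The difference of CDT2 ranged from −8.42 to −5.98 and that of MTI2B from −7.23 to −5.05 over the alternatives.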
